A study of Sus scrofa with 4 samples.

Results

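The neurotrophins and the GDNF family are secreted growth factors, and 8 genes that encode their ligands and receptors were followed in sorted pig lung cells: the ligands BDNF, NTF3 and GDNF, and the receptors NGFR, NTRK2, NTRK3, SORT1 and GFRA1. They were chosen by gene name, with earlier results of these data known, and all 8 were found among the 29263 genes of the count tables. The cells came from lungs of pigs (Sus scrofa) of the genotype LGR5-H2B-GFP knock-in. Their cells carry a fluorescent histone where they transcribe LGR5, a receptor for R-spondins. All 4 libraries share that genotype. GFP-HI denotes the fluorescent fraction and GFP-NEG the fraction without fluorescence, with 2 biological replicates of each and no treatment in the labels. The protocol covers adult and fetal lung without saying which was used here, and the title of the authors' deposited comparison names the adult pig. H2B-GFP is a stable protein, so fluorescence can outlast transcription of LGR5. The protocol also lists antibodies against EPCAM and NGFR, without stating whether they gated these libraries.

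Neurotrophins act through a Trk receptor tyrosine kinase and the shared receptor p75, encoded by NGFR. BDNF prefers TrkB (NTRK2), and neurotrophin-3 (NTF3) prefers TrkC (NTRK3). Unprocessed proneurotrophins bind p75 together with sortilin (SORT1). GDNF binds GFRα1 (GFRA1), a receptor anchored to the membrane by lipid, which passes the signal to the kinase RET or to the adhesion molecule NCAM1. In lung these factors are known from nerves, airway smooth muscle and epithelium, and p75 is a surface marker of airway basal cells.

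The GFP-HI libraries held 24200550 and 24689986 counts and the GFP-NEG libraries 6292253 and 7045652, so depth and group cannot be told apart by design. Genes with any count numbered 18752 and 18392 in GFP-HI but 24120 and 25985 in the shallower GFP-NEG libraries. The part of this in low counts that were lower in GFP-HI was not tested. The check of the sort was LGR5, with 3218 and 3073 counts in the bright libraries against 10 and 7 in the negative ones. Levels are given as CPM, counts set relative to the size and composition (TMM) of each library, and can be compared between libraries but not between genes, since no transcript lengths were used. A single count was worth 0.0453 and 0.0496 CPM in GFP-HI and 0.155 and 0.110 CPM in GFP-NEG replicates 1 and 2. Differences are log2 fold changes (GFP-HI minus GFP-NEG) ± standard error (SE) from edgeR's quasi-likelihood test, with p-values adjusted over 19682 genes by the Benjamini-Hochberg method and a threshold of 0.05. With 2 libraries in each group, p-values rest on the spread between these 4 libraries pooled over genes, and little on that of the single gene. In bulk samples, fewer cells of a type and less RNA per cell cannot be told apart.

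GFRA1 and NTF3 were higher in GFP-HI, and no member was lower past the threshold. Of the 7 members that passed the filter on low counts, 2 were called higher, against 8.35% of all genes tested, and 0 were called lower, against 27.6%. At an unadjusted p under 0.05, 1 of the 7 was lower (NTRK2), against 31.0% of all genes tested, and DESeq2, the other tool run, called 0 lower, against 24.9% of the genes it gave an adjusted p. The groups did not overlap for 3 members that were higher (BDNF, NTF3, GFRA1), against 27.7% of genes, and for 3 that were lower (NTRK2, NTRK3, GDNF), against 42.0%. The median log2 fold change of the 7 was 0.34, and that of all genes tested was -0.25. Since the members were chosen with earlier results of these data known, these comparisons only describe the list. NGFR had too few counts to be tested.

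**Figure D1:**
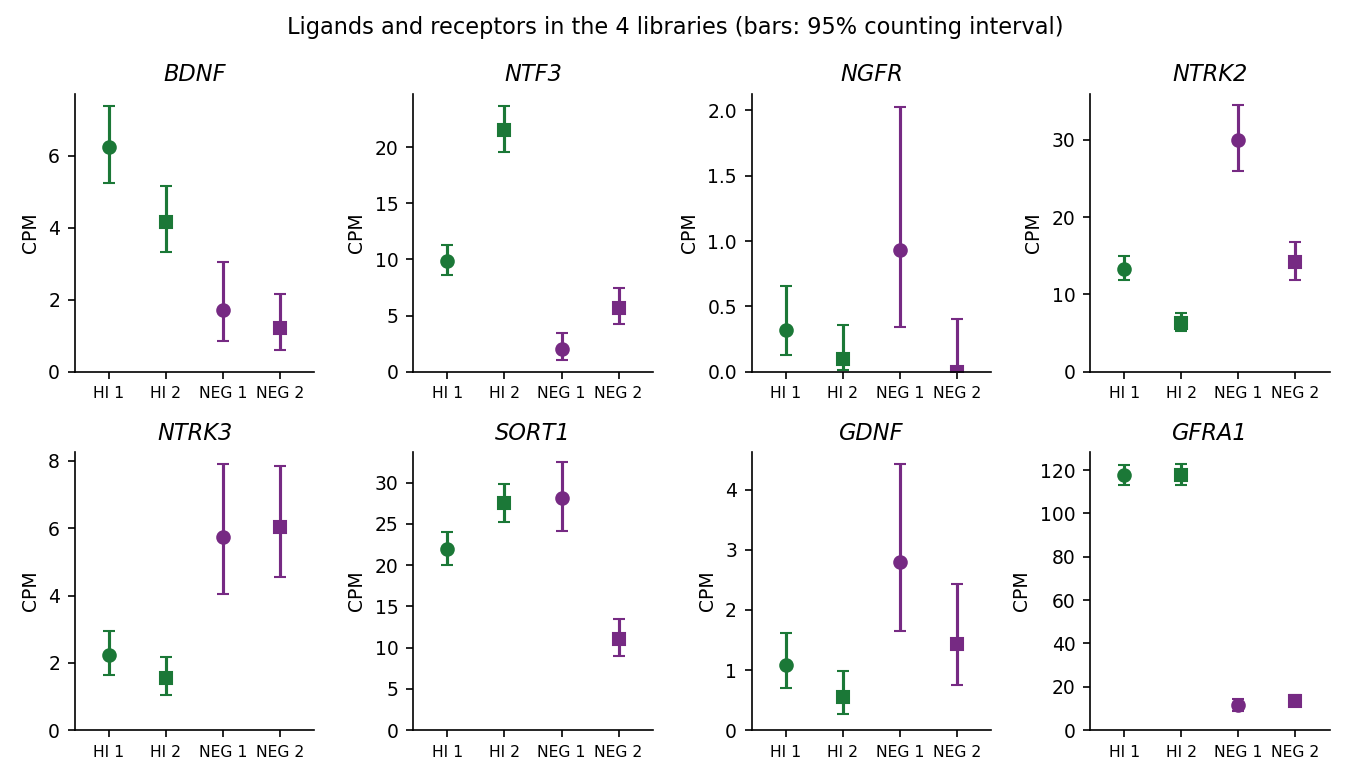
CPM (linear axis from 0, scaled separately for each gene) of the 8 genes in GFP-HI replicates 1 and 2 (green) and GFP-NEG replicates 1 and 2 (purple), with circles for replicate 1, squares for replicate 2 and bars for the exact Poisson 95% interval of the count. GFRA1 lies near 118 CPM in both GFP-HI libraries and between 11.5 and 13.6 CPM in GFP-NEG, while NGFR is under 1 CPM in every library.

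GFRA1, the GDNF-binding receptor, was the member with the largest difference. It had 2599 counts (118 CPM) and 2377 counts (118 CPM) in GFP-HI replicates 1 and 2, and 74 counts (11.5 CPM) and 124 counts (13.6 CPM) in GFP-NEG replicates 1 and 2. The GFP-HI replicates lay closer together than their counting intervals (113 to 122 and 113 to 123 CPM), and both stood far above the GFP-NEG libraries. The mean was 118 ± 0.0604 CPM for GFP-HI against 12.5 ± 1.49 CPM for GFP-NEG (SD, n = 2 each). The log2 fold change was 3.23 ± 0.57 (SE), a 9.38-fold difference, with an adjusted p of 7.7e-07 (edgeR). It was 3.34 within replicate 1 and 3.10 within replicate 2. Leaving out each library in turn gave 3.17 to 3.38, with adjusted p-values of 0.0025 to 0.0035. The authors' deposited table gives GFRA1 a log2 fold change of 3.22 with an adjusted p of 4.3e-08.

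GDNF, the ligand of GFRα1, was low in every library. It had 24 counts (1.09 CPM) and 11 counts (0.545 CPM) in GFP-HI and 18 counts (2.80 CPM) and 13 counts (1.43 CPM) in GFP-NEG. Both GFP-HI values were below both GFP-NEG values, although the counting interval of GFP-HI replicate 1 (0.697 to 1.62 CPM) overlapped that of GFP-NEG replicate 2 (0.759 to 2.44 CPM). The log2 fold change of -1.35 ± 1.23 (SE) was not significant (adjusted p of 0.42, edgeR), and its 95% interval ran from -3.75 to 1.05.

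Of the signalling partners of GFRα1, NCAM1 was called and RET was not, and the difference between them was not tested. NCAM1, which can transmit the GDNF signal in place of RET, had 8169 counts (370 CPM) and 9928 counts (492 CPM) in GFP-HI, and 526 counts (81.7 CPM) and 195 counts (21.4 CPM) in GFP-NEG. It rose by 3.07 ± 0.69 (SE) on the log2 scale (adjusted p of 1.2e-04, edgeR), without overlap between the groups. The NCAM1 value was 2.36 without GFP-NEG replicate 2, with the call lost (adjusted p of 0.11, edgeR). Removal of GFP-NEG replicate 1 gave 4.38. RET, the receptor tyrosine kinase itself, had 255 counts (11.6 CPM) and 106 counts (5.26 CPM) in GFP-HI and 35 counts (5.43 CPM) and 63 counts (6.91 CPM) in GFP-NEG. The RET groups overlapped, replicate 1 gave a difference of 1.07 and replicate 2 one of -0.39, and its log2 fold change of 0.44 ± 0.75 (SE) was not significant (adjusted p of 0.69, edgeR). SDC3, a heparan sulfate proteoglycan that binds GDNF, was at 46.4 and 41.4 CPM in GFP-HI and 44.7 and 11.07 CPM in GFP-NEG, and did not pass the threshold (0.66 on the log2 scale, adjusted p of 0.34, edgeR). Its value was 2.04 without GFP-NEG replicate 1, with an adjusted p of 0.032.

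Among the other co-receptors, GFRA2, which binds neurturin, split the GFP-HI replicates, with 427 counts (19.4 CPM) in replicate 1 and 63 counts (3.12 CPM) in replicate 2, against 59 counts (9.16 CPM) and 77 counts (8.44 CPM) in GFP-NEG. One GFP-HI library was thus above and the other below both GFP-NEG libraries. Its log2 fold change of 0.35 had an adjusted p of 0.73 (edgeR) and became -0.02 under library-size scaling alone. GFRA4, the persephin receptor, showed 81 counts (3.67 CPM) and 49 counts (2.43 CPM) in the GFP-HI libraries against 6 counts (0.932 CPM) and 11 counts (1.21 CPM). Its log2 fold change of 1.50 ± 1.20 (SE) was not significant (adjusted p of 0.35, edgeR), although the groups did not overlap. GFRAL had 10 counts in GFP-NEG replicate 2 and 0 in the other 3 libraries, and GFRA3 was not analysed here. The ligands neurturin (NRTN, 0 and 0 counts in GFP-HI, 4 and 14 in GFP-NEG), artemin (ARTN, 0 in all 4 libraries) and persephin (PSPN, 2 counts in GFP-HI replicate 1 and 0 elsewhere) were too low to be tested.

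NTF3, which encodes neurotrophin-3, was the ligand that passed the test as higher in GFP-HI. It had 218 counts (9.88 CPM) and 434 counts (21.5 CPM) in GFP-HI replicates 1 and 2, and 13 counts (2.02 CPM) and 52 counts (5.70 CPM) in GFP-NEG. Replicate 2 was the higher one in both fractions, and the lower GFP-HI value was above both GFP-NEG values. The means were 15.7 ± 8.23 CPM and 3.86 ± 2.60 CPM (SD, n = 2 each). The log2 fold change was 2.00 ± 0.71 (SE), a 4.01-fold difference, with an adjusted p of 0.016 (edgeR), and the difference was 2.22 within replicate 1 and 1.89 within replicate 2. The authors' deposited table gives NTF3 a log2 fold change of 2.00 with an adjusted p of 0.039.

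The NTF3 call depended on single libraries and on scaling. Without GFP-HI replicate 2 the log2 fold change was 1.46 (adjusted p of 0.24, edgeR). Removal of GFP-NEG replicate 1 gave 1.51 (adjusted p of 0.16), whereas it was 2.63 without GFP-HI replicate 1 and 2.92 without GFP-NEG replicate 2. Upper-quartile scaling gave 1.61 (adjusted p of 0.087) and library size alone 1.47 (adjusted p of 0.15). These scalings also moved the median of all genes, from -0.25 to -0.58 and -0.68. Relative to that median, NTF3 was higher by 2.25 under TMM, 2.19 under upper-quartile scaling and 2.15 under library size alone.

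BDNF, the ligand of TrkB, had 138 counts (6.25 CPM) and 84 counts (4.16 CPM) in GFP-HI and 11 counts in each GFP-NEG library (1.71 and 1.21 CPM). The groups did not overlap, and the counting intervals of the GFP-HI libraries (5.25 to 7.39 and 3.32 to 5.16 CPM) lay above those of the GFP-NEG libraries (0.853 to 3.06 and 0.602 to 2.16 CPM). The difference was similar in both replicates, at 1.79 and 1.68 on the log2 scale. In the fit across all genes, however, the log2 fold change of 1.84 ± 1.07 (SE) did not pass the threshold (adjusted p of 0.18, edgeR), and its 95% interval ran from -0.25 to 3.93. Over the 12 alternatives the BDNF value lay between 1.45 and 2.18, with adjusted p-values of 0.14 to 0.49. The authors' deposited table gives 1.84 with an adjusted p of 0.14.

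NTF4, a further ligand of TrkB, was close to absent from the GFP-HI libraries (2 and 1 counts) with 9 and 26 counts (1.40 and 2.85 CPM) in GFP-NEG, and it was called lower (adjusted p of 0.0043, edgeR). That call was lost without GFP-HI replicate 1, without GFP-HI replicate 2 and without GFP-NEG replicate 1 (adjusted p of 0.10, 0.14 and 0.067). As a measure of background, the odorant receptor genes, recognised by their symbols and picked after the data had been seen, had a 95th percentile of 1.37 and 4.89 CPM in the GFP-NEG libraries and 0 in both GFP-HI libraries. In GFP-NEG replicate 2 BDNF, NTF4, NRTN and GDNF all lay below that percentile, whereas in GFP-NEG replicate 1 BDNF (1.71 CPM), NTF4 (1.40 CPM) and GDNF (2.80 CPM) lay above it and NRTN (0.621 CPM) below. The part of such background in their differences was not tested.

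NTRK2, which encodes TrkB, was lower in GFP-HI in each replicate without passing the threshold. It had 294 counts (13.3 CPM) and 128 counts (6.35 CPM) in GFP-HI and 193 counts (30.0 CPM) and 129 counts (14.1 CPM) in GFP-NEG. Replicate 1 was the higher one in both fractions, and the GFP-HI replicate 1 value came close to that of GFP-NEG replicate 2 without reaching it. The difference was -1.16 within replicate 1 and -1.14 within replicate 2. The log2 fold change of -1.16 ± 0.59 (SE) had an unadjusted p of 0.049 and an adjusted p of 0.12 (edgeR). Under library size alone NTRK2 was called lower (log2 fold change -1.50, adjusted p of 0.045), while relative to the median of all genes it was -0.91 under TMM and -0.83 under that scaling. The value ranged from -0.47 without GFP-NEG replicate 1 to -1.68 without GFP-HI replicate 1.

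NTRK3, which encodes TrkC, the receptor for neurotrophin-3, had 49 counts (2.22 CPM) and 31 counts (1.54 CPM) in GFP-HI and 37 counts (5.75 CPM) and 55 counts (6.03 CPM) in GFP-NEG. The groups did not overlap, and neither did their counting intervals, the nearest of which were 1.64 to 2.94 CPM in GFP-HI replicate 1 and 4.05 to 7.92 CPM in GFP-NEG replicate 1. The log2 fold change of -1.64 ± 1.00 (SE) did not pass the threshold (adjusted p of 0.20, edgeR), with a 95% interval from -3.59 to 0.31. It lay between -2.07 and -1.31 over the 12 alternatives.

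**Figure D2:**
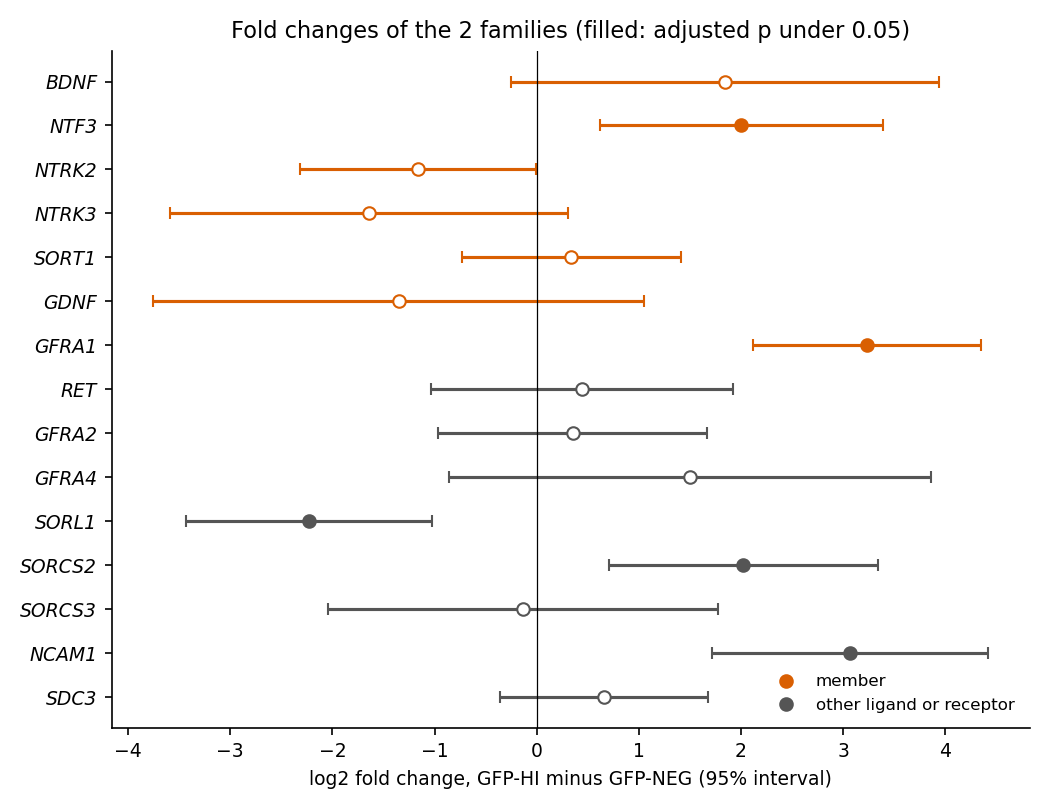
Log2 fold change (GFP-HI minus GFP-NEG, horizontal axis) with its 95% interval for the 7 tested members (orange) and the other ligands and receptors described here that were tested and had more than 3 counts in each group (grey). Filled points mark an adjusted p under 0.05 (edgeR): GFRA1, NCAM1, SORCS2 and NTF3 lie to the right of 0 and SORL1 to the left.

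NGFR, the p75 receptor, had 7 counts (0.317 CPM) and 2 counts (0.0992 CPM) in GFP-HI and 6 counts (0.932 CPM) and 0 counts in GFP-NEG. The exact Poisson 95% intervals ran from 0.0120 to 0.654 CPM over the GFP-HI libraries and from 0 to 2.03 CPM over the GFP-NEG libraries, and the groups overlapped. These intervals cover counting error only. The highest NGFR value, in GFP-NEG replicate 1, lay below the 95th percentile of the odorant receptor genes in the same library (1.37 CPM). In both GFP-HI libraries that percentile was 0, and the NGFR values lay above it. Airway basal markers were present beside it: KRT5, a basal keratin, showed 45 and 126 counts in the GFP-HI libraries against 190 and 198, and TP63, a basal cell transcription factor, had 10 and 12 against 49 and 75. The summed level of the 4 basal markers was 9.47 to 10.1 CPM in GFP-HI and 45.5 to 86.6 CPM in GFP-NEG.

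SORT1, which encodes sortilin, had 484 counts (21.9 CPM) and 554 counts (27.5 CPM) in GFP-HI and 181 counts (28.1 CPM) and 101 counts (11.07 CPM) in GFP-NEG. GFP-NEG replicate 1 was the highest and GFP-NEG replicate 2 the lowest of the 4 libraries, so the groups overlapped, with differences of -0.36 in replicate 1 against 1.30 in replicate 2. The log2 fold change of 0.34 ± 0.55 (SE) was not significant (adjusted p of 0.67, edgeR) and became -0.03 under library size alone. Its 95% interval ran from -0.73 to 1.41.

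The relatives of sortilin, which share its Vps10 domain, included calls in both directions. SORCS2, which binds proneurotrophins together with p75, had 410 counts (18.6 CPM) and 360 counts (17.9 CPM) in GFP-HI and 19 counts (2.95 CPM) and 54 counts (5.92 CPM) in GFP-NEG. It rose by 2.02 ± 0.67 (SE) on the log2 scale (adjusted p of 0.0095, edgeR). The SORCS2 call was lost without GFP-NEG replicate 1 (1.67, adjusted p of 0.11), under upper-quartile scaling (1.65, adjusted p of 0.056) and under library size alone (1.54, adjusted p of 0.094). SORL1, an endosomal sorting receptor, fell by 2.23 ± 0.61 (SE), from 225 and 272 CPM in GFP-NEG to 59.7 and 46.1 CPM in GFP-HI (adjusted p of 0.0014, edgeR). Without GFP-HI replicate 2 the SORL1 value was -1.96, with an adjusted p of 0.098. SORCS3 overlapped between the groups (5.44 and 1.83 against 4.97 and 3.07 CPM, log2 fold change -0.14, adjusted p of 0.93, edgeR), and SORCS1 had 31 counts in GFP-NEG replicate 2 and 0 elsewhere.

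Over the 6 lists of other genes of these pathways, 50 of 52 genes were in the tables and 44 were tested. Of these 9 were called higher and 7 lower, against 8.35% and 27.6% of all genes tested, and their median log2 fold change was 0.40 (0.40 also with the gene at 0 in GFP-HI set at its bound). Besides NCAM1, SORCS2, SORL1 and NTF4, the calls described here lay among genes that act inside the cell or on the ligands. Without GFP-NEG replicate 1 the higher calls were 14 and the lower ones 3, and without GFP-NEG replicate 2 they were 3 and 2. Without GFP-HI replicate 1 they were 7 and 2, and without GFP-HI replicate 2 they were 6 and 0. With the GFP-HI libraries thinned to the depth of GFP-NEG, 8 were higher and 4 lower.

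Of the 6 partners of p75, 3 rose and 0 fell, against 8.35% and 27.6% of all genes tested. The list median was 1.36. BEX3, which binds the p75 intracellular domain, was at 171 and 403 CPM in GFP-HI and 43.5 and 9.21 CPM in GFP-NEG (log2 fold change 3.45 ± 0.65 SE, adjusted p of 4.5e-06, edgeR). It kept its call in all 12 alternatives, with values from 2.69 to 5.01. MAGED1, a cytoplasmic binding partner of p75, was at 308 and 370 CPM against 90.8 and 36.0 CPM and rose by 2.42 (adjusted p of 0.0010, edgeR). NDN, the related MAGE family protein necdin, was at 90.6 and 42.9 CPM against 29.3 and 5.59 CPM and rose by 1.94 (adjusted p of 0.0013, edgeR). MAGED1 lost its call without GFP-NEG replicate 2 (1.86, adjusted p of 0.24, edgeR), and NDN lost its call without that library (1.15, adjusted p of 0.45) and without GFP-HI replicate 1 (1.39, adjusted p of 0.16). The surface partners RTN4R (-0.55) and LINGO1 (-0.92) and the adaptor TRAF6 (0.78) did not pass the threshold, with adjusted p-values of 0.76, 0.58 and 0.25 (edgeR). The receptor itself had 7 and 2 counts in the GFP-HI libraries, as given above.

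Of the 5 genes for processing of proneurotrophins, 2 rose and 0 fell, against 8.35% and 27.6% of all genes tested. Their median was 0.72. PCSK6, a proprotein convertase, was at 39.0 and 52.8 CPM in GFP-HI and 5.75 and 3.62 CPM in GFP-NEG (log2 fold change 3.30 ± 0.59 SE, adjusted p of 1.4e-06, edgeR), and it kept its call in all 12 alternatives (2.89 to 3.71). PLAT, the tissue plasminogen activator, was at 68.8 and 113 CPM against 34.9 and 7.35 CPM and rose by 2.11 (adjusted p of 5.0e-04, edgeR). The PLAT call was lost without GFP-NEG replicate 2 (1.34, adjusted p of 0.35, edgeR) and without GFP-HI replicate 2 (1.75, adjusted p of 0.088). FURIN (-0.50), PCSK5 (0.72) and PCSK7 (0.05), further convertases, did not pass the threshold.

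Of the 15 tested adaptors of Trk and RET, 1 rose and 3 fell, against 8.35% and 27.6% of all genes tested. Their median was 0.23. KIDINS220, a scaffold phosphorylated by Trk receptors, rose by 1.50 (307 and 261 against 140 and 60.8 CPM, adjusted p of 0.046, edgeR), and 8 of 12 alternatives left it above the threshold, with adjusted p-values up to 0.63. GRB2, the adaptor that links receptor kinases to Ras, fell by 1.44 (33.7 and 21.7 against 87.7 and 62.4 CPM, adjusted p of 0.020, edgeR). The GRB2 call was lost without any one of the 4 libraries, with values from -1.70 to -1.08. GRB7, a further adaptor, showed 8 and 0 counts in the GFP-HI libraries against 17 and 62 (adjusted p of 0.0026, edgeR) and lost its call without GFP-HI replicate 2 (adjusted p of 0.089) and without GFP-NEG replicate 2 (adjusted p of 0.19). SHC3, an adaptor typical of neurons, had 0 counts in both GFP-HI libraries and 6 and 9 in GFP-NEG (adjusted p of 6.2e-04, edgeR). Its GFP-NEG values of 0.932 and 0.987 CPM lay below the 95th percentile of the odorant receptor genes (1.37 and 4.89 CPM). It was tested in 6 of 12 alternatives and called in 5 of them, and no fit with a library left out tested it. GAB1 (1.21) and GAB2 (-1.23), docking proteins of the same kinases, lay just outside the threshold, with adjusted p-values of 0.055 and 0.054 (edgeR).

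Response genes of receptor tyrosine kinases, which many growth factors induce, gave 1 call in each direction among 7 tested. The shares of all genes tested were 8.35% higher and 27.6% lower. The median of the 7 was 0.90. SPRY2, a feedback inhibitor, rose by 1.98 (26.9 and 54.9 against 12.6 and 8.22 CPM, adjusted p of 0.0018, edgeR), and was at 1.45 without GFP-HI replicate 2 and 1.66 without GFP-NEG replicate 2, with the call lost in both (adjusted p of 0.12 and 0.19). DUSP6, a phosphatase of ERK kinases, fell by 1.81 (41.3 and 31.3 against 175 and 79.2 CPM, adjusted p of 0.0043, edgeR), and was at -1.07 without GFP-NEG replicate 1, with the call lost (adjusted p of 0.23). It was also lost without GFP-HI replicate 1 and without GFP-HI replicate 2 (adjusted p of 0.074 and 0.15). ETV4 and ETV5, transcription factors known as targets of GDNF and RET, had log2 fold changes of 2.63 and 0.15 (adjusted p of 0.065 and 0.86, edgeR).

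**Figure D3:**
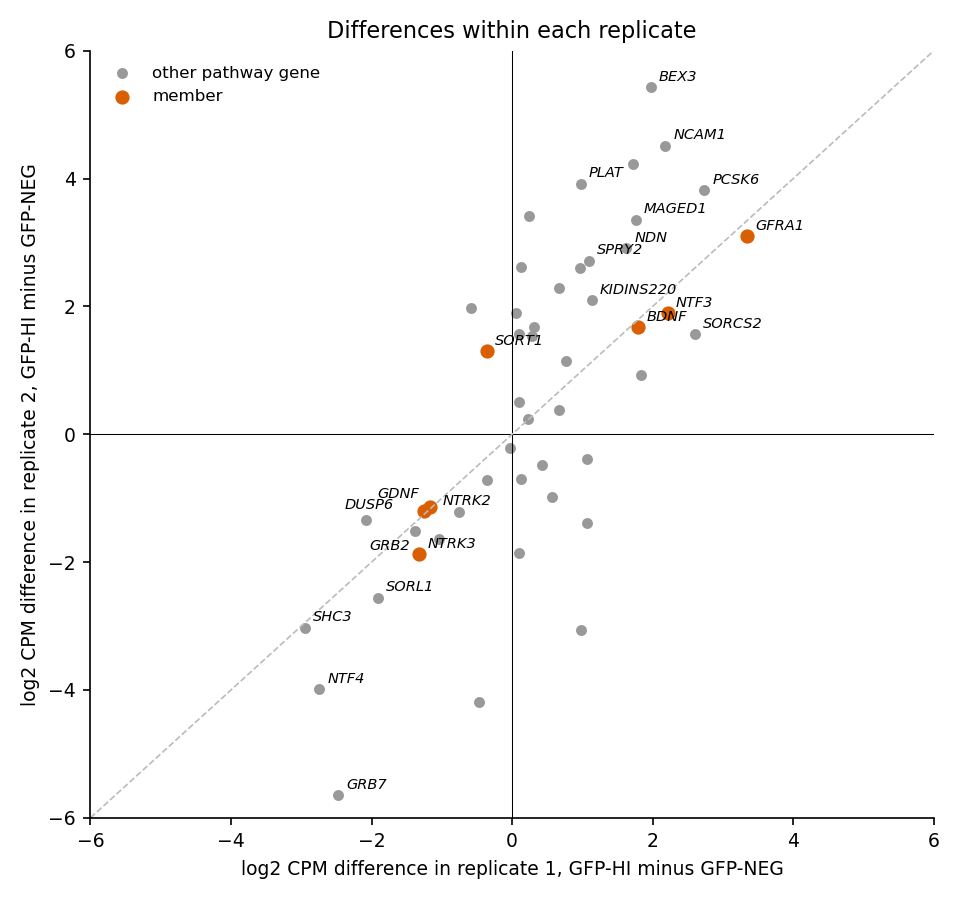
Difference in log2 CPM (GFP-HI minus GFP-NEG, computed with a prior count of 2) within replicate 1 (horizontal axis) and replicate 2 (vertical axis) for the 7 tested members (orange) and other tested pathway genes (grey), with names at members and at called genes. Of the members, 6 have the same sign in both replicates and lie near the dashed line of equality, and SORT1 lies at -0.36 and 1.30.

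The members also differed between replicates within a fraction. BDNF, NTRK2 and GDNF were higher in replicate 1 of both fractions, and NTF3 in replicate 2 of both. GFRA1 was level across replicates, and NTRK3 and SORT1 were ordered differently in the fractions. With 2 replicates this ordering is a description of the 4 libraries.

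**Figure D4:**
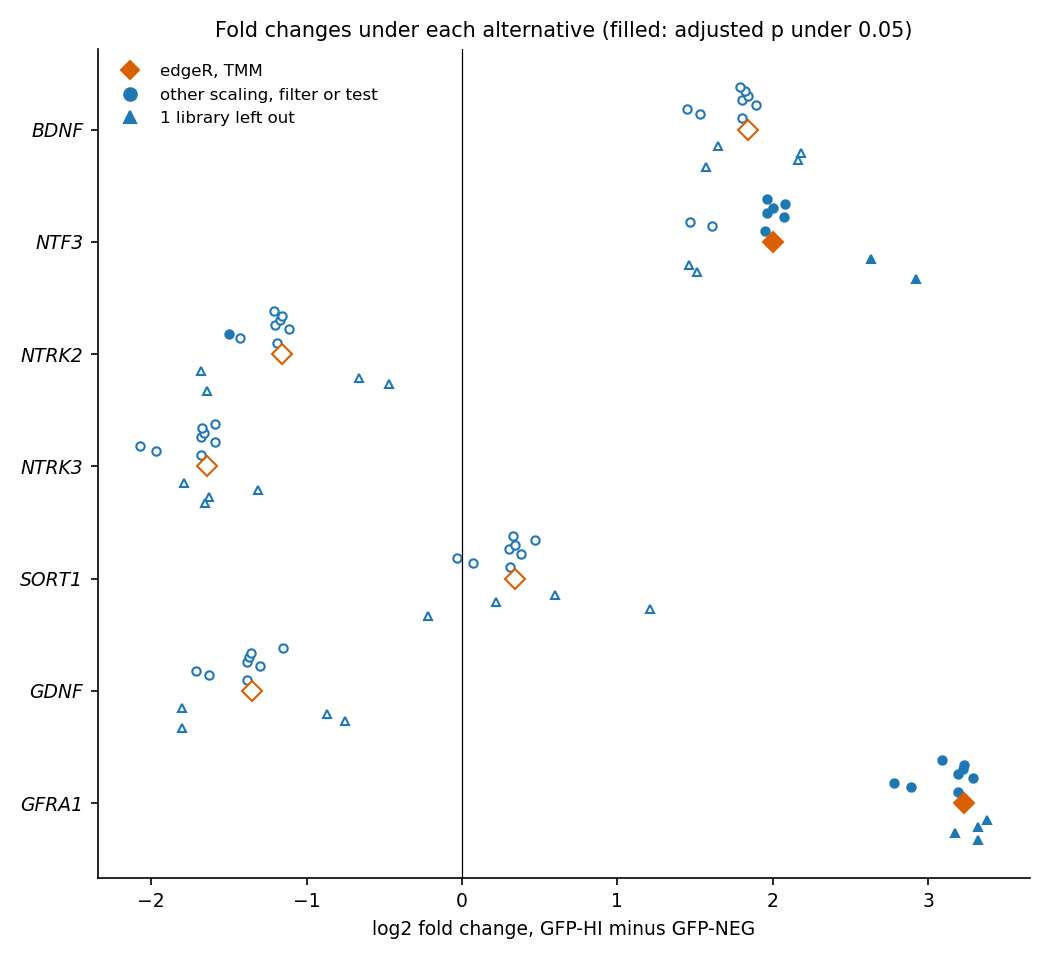
Log2 fold change (horizontal axis) of the 7 tested members with TMM scaling in edgeR (diamonds), under other scalings, filters or tests (circles) and with 1 library left out (triangles, spread vertically like the circles for legibility), filled where the adjusted p is under 0.05. GFRA1 is filled throughout between 2.78 and 3.38, NTF3 is open in 4 of 12 alternatives, and NTRK2 is filled in 1.

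Marker lists show which cells the fractions held beside these genes. Fibroblast markers (8 genes) summed to 81118 and 71308 CPM in GFP-HI and 25213 and 9001 CPM in GFP-NEG. Of the 8, 5 were called higher and 0 lower, against 8.35% and 27.6% of all genes tested. Most of the sum came from COL1A1, COL1A2 and COL3A1. These were the 3 not called (adjusted p of 0.36, 0.46 and 0.29, edgeR), although their groups did not overlap. Smooth muscle and pericyte markers (9 genes) summed to 2451 and 2838 CPM in GFP-HI and to 2725 CPM in GFP-NEG replicate 1 but 416 CPM in GFP-NEG replicate 2. This list was split, with 2 of 9 called higher and 3 lower, against the same 8.35% and 27.6%. Endothelial markers (6 genes) summed to 174 to 175 CPM against 543 to 1275 CPM, and immune markers (6 genes) to 210 to 334 CPM against 1343 to 2032 CPM. The part of this difference in cell makeup in the values of GFRA1, NTF3, NTRK2 and the other members was not tested.

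Because GFRA1, NCAM1 and p75 are also known from Schwann cells, the markers of peripheral glia were read separately. Of 8 glial markers in the tables, 4 were at 0 in both GFP-HI libraries, and 2 of these, CDH19, a cadherin, and FOXD3, a transcription factor of the neural crest, also in both GFP-NEG libraries. SOX10, the transcription factor that defines the lineage, had 135 counts (6.12 CPM) and 323 counts (16.0 CPM) in GFP-HI and 30 counts (4.66 CPM) and 40 counts (4.39 CPM) in GFP-NEG, and its log2 fold change of 1.29 did not pass the threshold (adjusted p of 0.18, edgeR). Of the 4 that were tested 2 were called lower and 0 higher (edgeR), against 27.6% and 8.35% of all genes tested. SOX10 and ERBB3 were the 2 not called. A count over 4 genes gives no reading of glia as a whole. The whole list summed to 194 and 373 CPM in GFP-HI and 182 and 228 CPM in GFP-NEG. Most of it came from ERBB3, a neuregulin receptor, at 183.5 and 356 CPM in GFP-HI and 138.5 and 209 CPM in GFP-NEG. The ERBB3 log2 fold change of 0.64 was not significant (adjusted p of 0.46, edgeR). Glia and epithelial cells both express ERBB3, and which cells carried it here was not tested. The 7 neuronal and neuroendocrine markers in the tables summed to 41.8 and 43.9 CPM in GFP-HI against 14.0 and 12.0 CPM. Most of the GFP-HI sum came from UCHL1, at 38.8 and 41.2 against 9.32 and 2.19 CPM, so it is no reading of the whole list. Of the 4 tested, UCHL1 was the one called, and log2 fold changes ran from -2.89 to 2.82 with a median of 0.34. Among the 7, 2 were at 0 in both GFP-HI libraries, including GRP, which encodes gastrin-releasing peptide. The general epithelial markers summed to 20.3 to 40.1 CPM in GFP-HI and 52.7 to 97.8 CPM in GFP-NEG. Of the mesothelial markers WT1 was in the tables, with 0 and 2 counts in the GFP-HI libraries against 0 and 24.

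**Figure D5:**
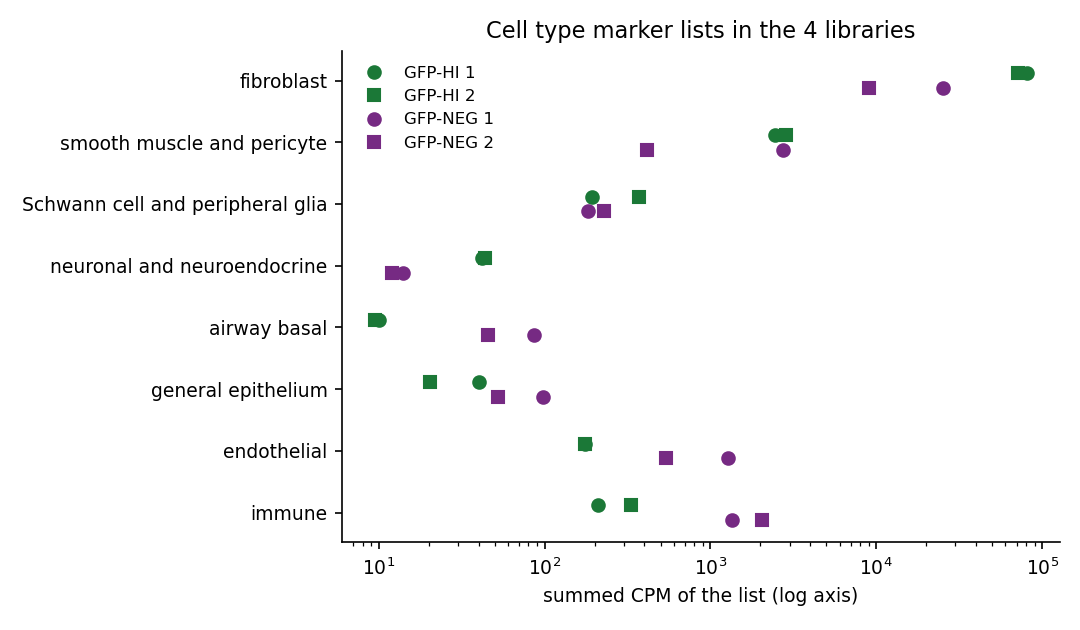
Summed CPM (log axis) of 8 marker lists in GFP-HI (green) and GFP-NEG (purple), with circles for replicate 1 and squares for replicate 2. Fibroblast markers are higher and endothelial, immune and airway basal markers lower in both GFP-HI libraries. The sum of the glial markers consists mostly of ERBB3, and that of the neuronal and neuroendocrine markers in GFP-HI mostly of UCHL1. Of the 4 tested glial markers 2 were called lower in GFP-HI, against 27.6% of all genes tested, and SOX10 and ERBB3 were not called.

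The genes most like the called members were sought among 10562 other genes with a symbol and a mean of at least 5 CPM, by the root mean square difference of centred log2 CPM over the 4 libraries. Nearest to GFRA1 were LGI1, a secreted synaptic protein (0.133), EPHA4, an ephrin receptor (0.166), and TMEM132C, a membrane protein (0.190), and 60 genes lay within 0.5. EPHA4 was at 61.1 and 58.1 CPM in GFP-HI and 6.68 and 5.70 CPM in GFP-NEG. Nearest to NTF3 were AS3MT, an arsenic methyltransferase (0.134), SLC12A8, a transporter (0.151), and TNFSF15, a TNF family ligand (0.266), with 38 genes within 0.5. TNFSF15 was at 27.2 and 66.1 CPM against 5.43 and 10.7 CPM, with the same order of replicates as NTF3. Over 4 libraries such likeness describes these values only.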

How the data were processed

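RNA-seq of 4 sorted libraries was analysed. The authors deposited a table of whole-number counts for each library. Their comparison table holds, per the file headers, the same counts, normalized values (a linear signal), a log2 fold change, and p-values before and after adjustment. Of the 4 normalized columns, 2 carried counts of a library other than the one in their heading, and none was used. The submitters' processing notes name featureCounts, Subread 1.5.2 and DESeq2 1.37.6. The aligner, genome build, strand setting and filters are not given in the sources used here, so overlapping and antisense transcripts (BDNF and GDNF have known ones) cannot be told apart, and no coordinates are printed. Gene identifiers without a symbol were matched to the gene name table, and 834 were renamed.

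Counts were tested with edgeR 4.0.16 in R 4.3.3 (glmQLFit, glmQLFTest, TMM, filterByExpr, with group as single term). The 19682 genes that passed the filter held 99.8% of counts. The common dispersion was 0.239 and the prior degrees of freedom were infinite, so that the scatter of one gene weighed little in its test. Alternatives were other scalings and filters, DESeq2 1.42.0, thinned counts, the replicate number as a block and each library left out. Whether libraries with the same replicate number came from 1 animal was not settled, since the headings that name pigs are those of the normalized columns, and no pairing entered the test. Intervals of counts are exact Poisson 95% intervals. The procedure was tested on simulated counts. It called 7 of 101 genes changed by 2 on the log2 scale and 40 of 90 changed by 3, with 0 false calls. The simulation changed 200 genes, with directions drawn at random, whereas the data gave 1643 calls higher and 5433 lower. Its rates of recovery and of false calls therefore do not carry over to these data. A gene that was not called may still differ by such an amount. Named genes were all members, every other listed ligand or receptor, every listed gene past the threshold and the 3 nearest genes of each called member, except a few that are counted in their lists but not reported here. Other listed genes and markers were named after their values were seen. The members and lists were chosen with earlier results of these data known.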

Additional observations from a re-analysis of the deposited data

How the results depend on the processing

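Over the 12 alternatives GFRA1, LGR5, BEX3 and PCSK6 kept their direction and their call, and BDNF, NTRK3 and GDNF kept their direction and stayed above the threshold. The number of members called higher, 2 with TMM, was 1 under upper-quartile scaling and 1 under library size alone, where 1 was called lower, and it was 1 to 2 with each library removed in turn. Over all genes, 1643 were higher and 5433 lower. Upper-quartile scaling gave 1083 higher genes and library size alone 888, and leaving out single libraries gave 216 to 1635 higher and 1575 to 4999 lower, where the lone library of a group was assumed to vary like the other group. Of the other pathway genes, 9 were higher and 7 lower, with 4 lower after thinning, and 3 to 14 higher and 0 to 3 lower with single libraries left out. Genes that were not called changed sign: SORT1 was -0.03 and GFRA2 -0.02 under library size alone. With single libraries left out, SORT1 ranged from -0.22 to 1.21, RET from -0.08 to 1.00, GFRA2 from -1.35 to 1.22, SORCS3 from -1.00 to 0.52 and SDC3 from -0.06 to 2.04. The cause was not tested. Deviations from the group means correlated weakly between libraries that share a replicate number (r = 0.16 over tested genes), and the pairing of these libraries was not settled. The replicate block gave 1707 genes higher and 4793 lower, and 12 other pathway genes higher and 6 lower. It turned GFRA2 to -0.16, gave SHC3 an adjusted p of 0.062 (edgeR), and ended no other call among the named genes. NGFR, GDNF and NTRK3 had at most 55 counts in any library and BDNF had 11 in each GFP-NEG library, which limits the precision of their values.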
